A study of Mus musculus with 14 samples.

Results

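The comparison set 2 sorted fractions of FDCPmix cells that had left the Kit+Gr1- state against the Kit+Gr1- cells of the same cultures. FDCPmix cells are a mouse line of multipotent progenitors derived from bone marrow, and they depend on interleukin-3 for growth. The 12 arrays were chosen by their titles out of 14 in the series. They hold 3 samples of Kit-Gr1- cells and 3 of Gr1+ cells, together called committed here, and 3 samples each of Kit+Gr1- cells with high Sca1 (Sca1hi) and with low Sca1 (Sca1lo). All cells came from untreated maintenance cultures of the 1 line, in a low-tyrosine medium with horse serum and medium conditioned by interleukin-3-producing cells, and were separated by antibody staining and flow sorting. The design text calls the replicates biological. The titles abbreviate the fractions as ECP, MCP and SR without spelling these out, and a cultured line stands here for progenitors of the marrow. The remaining 2 arrays hold unfractionated cells and took no part in choosing genes.

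Kit is the receptor for stem cell factor, and blood progenitors carry it while they can still divide and choose between lineages. Gr1 is an antigen of granulocytes carried by Ly6 family proteins, and Sca1 is the product of Ly6a. Commitment to a lineage is known to pair the loss of progenitor regulators and receptors with the gain of lineage proteins, and most of the gained proteins differ between lineages. The question was which genes moved the same way in both committed fractions. A gene is called separated when its 6 committed arrays all lay on 1 side of its 6 Kit+Gr1- arrays. It is called shared when it was also called by limma between the committed mean and the Kit+Gr1- mean, with 2-fold or more between the means and an adjusted p (Benjamini-Hochberg) below 0.05. Both conditions use the same 12 arrays, so neither supports the other. Levels are log2 signals relative to the array's 75th percentile, changes are log2 differences with limma's standard error after ±, and "rose" or "fell" is written of called genes alone.

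Of 31248 genes tested, 96 were shared and higher in the committed fractions and 42 were shared and lower, and 79 and 28 of these had a gene symbol. The higher genes included the steroid-metabolizing enzyme Akr1c18, the succinate receptor Sucnr1 and the basophil protease Mcpt8. The lower genes included the membrane protein Thsd1, the progenitor transcription factor Sox4 and the cell cycle inhibitor Cdkn1c. Changes of the higher genes ran from 1.00 to 4.04, and those of the lower genes from 1.01 to 2.63 in size. As background, limma called 349 genes higher (1.12% of those tested) and 96 lower (0.307%), while 350 genes were separated upward (1.12%) and 155 downward (0.496%). Among the called genes, 253 higher and 54 lower ones had overlapping arrays. In bulk RNA, fewer cells of a type and less RNA per cell cannot be told apart.

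The 12 arrays lay on 4 slides, of which slide 1 held replicate 1 of all 4 fractions, slide 2 held Sca1lo as its only Kit+Gr1- fraction, slide 3 held Sca1hi as its only one, and slide 4 held no committed sample. Between 79.5% and 98.9% of spots were well above background on these arrays. Sca1hi replicate 3, Sca1lo replicate 3 and Gr1+ replicate 3 had compressed log2 signals: their interquartile range was 2.37 to 3.42, and that of the other 9 arrays 4.17 to 4.92. Without these 3 arrays 137 genes were shared and higher and 105 were shared and lower, 79 and 42 of the genes above among them, and 581 and 852 were separated. Leaving out Kit-Gr1- replicate 1 gave 188 shared higher genes (699 separated), leaving out Sca1hi replicate 3 gave 73 shared lower genes (349 separated), and leaving out Gr1+ replicate 3 gave 65 (361 separated). Without Sca1hi replicate 2 there were 571 and 287 separated genes, and without Gr1+ replicate 2 limma called 57 lower. With fewer arrays a gene can become separated but cannot cease to be, so these separated counts could only stay or rise. The same holds against 1 Sca1 group alone. The balance between higher and lower genes moved with the scaling, the background method, the weights, the arrays used and the comparator. The share of higher genes among those called was 78.4% as reported, 94.5% with array medians, 60.9% in the deposited log2 values, 64.4% with array weights and 56.2% with all 14 arrays fitted. Among separated genes it was 69.3% as reported, 79.6% with array medians, 49.8% with quantile normalization, 50.2% with normexp, 33.0% in the deposited values, 40.5% without the 3 compressed arrays and 53.6% against Sca1lo cells alone. Shared genes numbered 58 higher and 6 lower with each array's median as the reference, and 54 and 65 in the deposited values, with 18 and 16 in a fit of all 14 arrays. The median change of all genes was -0.17, and it was 0.00 with array medians and -0.38 in the deposited values. Shared lower genes numbered 36 with quantile normalization, at a median change of -0.04. Without the compressed arrays they numbered 105 at -0.01, where fewer arrays also ease separation. The part of the median in these numbers was not tested.

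The mRNA of the gate antigens did not divide the samples as the shared genes did. Kit measured 0.77, 0.56 and -0.18 in Sca1hi cells, 0.56, 0.35 and 0.18 in Sca1lo cells, -1.61, -1.84 and -2.04 in Kit-Gr1- cells, and 0.43, 0.97 and 0.61 in Gr1+ cells. Kit mRNA was thus low in the Kit-Gr1- fraction alone, at -2.21 against Kit+Gr1- cells and 0.29 for Gr1+ cells. Ly6a measured -1.11 in the Kit-Gr1- fraction and 4.15 in the Gr1+ fraction relative to Kit+Gr1- cells, and Ly6c1, a Ly6 gene related to the Gr1 antigen, -0.63 and 6.74. The Gr1+ arrays were the highest of the 4 fractions for both Ly6 genes. None of the 3 genes was separated.

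**Figure D1:**
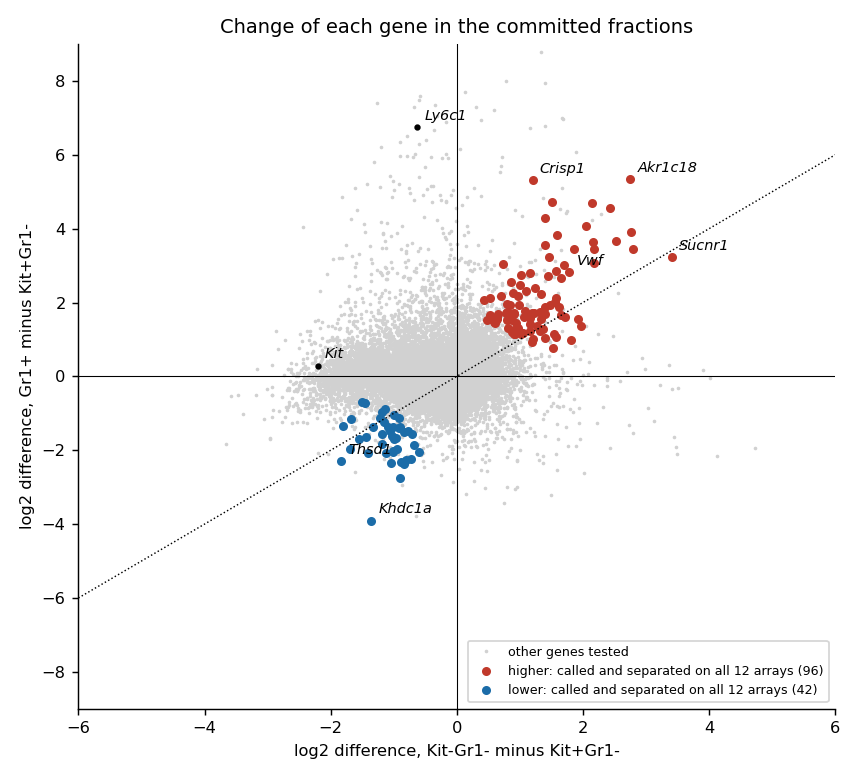
Log2 difference of the Kit-Gr1- fraction (horizontal axis) and of the Gr1+ fraction (vertical axis) from the mean of both Kit+Gr1- fractions, 1 point per gene; red points are the 96 shared higher genes, blue the 42 shared lower genes, grey the other genes tested, and the dotted line marks equal change. The axes differ in range. Akr1c18 and Sucnr1 lie far to the upper right, Thsd1 and Khdc1a to the lower left, and Kit and Ly6c1 away from both groups.

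Thsd1, a membrane protein with a thrombospondin repeat that is known from endothelium, fell in both committed fractions. It measured 0.78, 1.05 and -0.08 in Sca1hi cells and 0.08, -0.12 and -0.19 in Sca1lo cells, against -2.08, -1.38 and -1.28 in Kit-Gr1- cells and -1.69, -2.45 and -1.99 in Gr1+ cells. The highest committed array lay 1.09 below the lowest Kit+Gr1- array. Thsd1 fell by 2.07 ± 0.22 (4.19-fold, adjusted p = 0.000425 by limma), by 1.83 ± 0.27 in the Kit-Gr1- fraction (adjusted p = 0.0116 by limma) and by 2.30 ± 0.27 in the Gr1+ fraction (adjusted p = 0.000191 by limma). Its difference between the committed fractions, -0.46 ± 0.32, was not called. The order of the group means ran from Sca1hi over Sca1lo and Kit-Gr1- to Gr1+ cells. Neither neighbouring step within the Kit+Gr1- pair (0.66 ± 0.32) nor that within the committed pair was called. Committed minus Kit+Gr1- arrays of the same slide differed by -2.32, -1.79 and -2.69 on slides 1, 2 and 3.

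The genes whose levels followed that of Thsd1 most closely over the 12 arrays were Mcoln2, a cation channel of lysosomes and endosomes (Pearson's r = 0.965), Sox4 (0.962), the linker histone gene H1f10 (0.961), Ldlrad4, a membrane protein that dampens TGF-beta signalling (0.960), and Nhsl1, a relative of an actin-remodelling protein (0.956). These are descriptions over arrays that fall into a high and a low cluster. Mcoln2, Sox4 and Nhsl1 were shared lower genes themselves. The start regions of Thsd1 and Mcoln2 are shown because the level of Mcoln2 followed that of Thsd1 most closely, and those of Mcpt8 and Cd200r3 because both are basophil genes among the shared higher ones. The sequences are RefSeq's on GRCm38.p6, from 250 bases before to 50 after the first listed transcription start, at chr8:22227053-22227352 (+ strand), chr3:146149924-146150223 (+), chr14:56085148-56085447 (- strand) and chr16:44943428-44943727 (+). Capitals mark AGATAA (bound by GATA factors), TGTGGT (Runx factors), CACGTG (E-box factors) and GGAAGT (Ets factors), searched on both strands, so that ACCACA is TGTGGT read from the opposite strand.
Thsd1: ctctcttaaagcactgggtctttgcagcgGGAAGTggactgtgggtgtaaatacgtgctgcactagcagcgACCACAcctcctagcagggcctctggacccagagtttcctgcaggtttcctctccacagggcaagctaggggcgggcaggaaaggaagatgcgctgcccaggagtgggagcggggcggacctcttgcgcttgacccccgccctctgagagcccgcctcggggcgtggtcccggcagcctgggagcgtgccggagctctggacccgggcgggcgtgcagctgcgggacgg
Mcoln2: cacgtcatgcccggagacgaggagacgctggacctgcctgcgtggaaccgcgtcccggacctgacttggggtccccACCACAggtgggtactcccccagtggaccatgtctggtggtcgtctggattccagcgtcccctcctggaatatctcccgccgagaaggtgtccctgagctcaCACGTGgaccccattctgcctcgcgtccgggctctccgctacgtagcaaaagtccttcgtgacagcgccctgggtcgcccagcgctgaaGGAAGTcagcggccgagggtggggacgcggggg
Mcpt8: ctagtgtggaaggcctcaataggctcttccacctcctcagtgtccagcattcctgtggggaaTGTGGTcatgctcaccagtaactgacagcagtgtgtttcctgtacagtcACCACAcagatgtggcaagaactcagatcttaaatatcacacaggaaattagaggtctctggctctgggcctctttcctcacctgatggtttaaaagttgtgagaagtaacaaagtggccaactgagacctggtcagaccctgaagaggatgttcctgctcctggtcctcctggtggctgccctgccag
Cd200r3: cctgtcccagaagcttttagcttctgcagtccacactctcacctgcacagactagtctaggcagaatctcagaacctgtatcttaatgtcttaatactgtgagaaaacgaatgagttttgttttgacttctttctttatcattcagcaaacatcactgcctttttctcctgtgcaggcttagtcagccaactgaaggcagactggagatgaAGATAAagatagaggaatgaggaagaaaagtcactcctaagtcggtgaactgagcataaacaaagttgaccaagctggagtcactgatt

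In these windows Thsd1 and Mcoln2 each held 1 Runx and 1 Ets match, and Mcoln2 held 1 E-box besides. Mcpt8 held 2 Runx matches and Cd200r3 held 1 GATA match. The windows of Sox4 and Sucnr1, which were searched too, held 0 matches to these 4 motifs. Of the shared genes, 65 higher and 19 lower ones had an entry. AGATAA stood in 15.4% of the higher and 0 of the 19 lower windows, against 11.4% of all 27025 windows of the same length, and CACGTG in 4.62% and 21.1% against 7.24%. TGTGGT stood in 16.9% and 21.1% against 16.9%, and GGAAGT in 26.2% and 26.3% against 24.1%. A match is a string of letters, and no test was made of these shares.

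Several of the other lower genes encode membrane proteins. Scarf1, a scavenger receptor first known from endothelium, measured 1.41, 0.79 and 0.19 in Sca1hi cells and 1.15, 0.43 and 0.38 in Sca1lo cells, against -0.37, -1.25 and -0.83 in Kit-Gr1- cells and -0.76, -1.19 and -0.96 in Gr1+ cells. It fell by 1.62 ± 0.23 (3.07-fold, adjusted p = 0.00202 by limma). Mcoln2 measured -0.63, -0.20 and -0.69 in Sca1hi cells and -1.03, -0.97 and -1.09 in Sca1lo cells, and it lay between -2.77 and -1.84 on all committed arrays. It fell by 1.55 ± 0.20 (2.93-fold, adjusted p = 0.000999 by limma). Scarf1, Mcoln2, Thsd1 and Mdfi were the lower genes with a symbol that were called in each committed fraction taken alone. The other lower genes were called in the joint comparison with the same sign in both fractions.

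Pdgfrb, a platelet-derived growth factor receptor of stromal cells, lay between -1.93 and -1.1 on the Kit+Gr1- arrays and between -3.33 and -2.37 on the committed arrays, and fell by 1.35 ± 0.22. Mc5r, a melanocortin receptor, fell by 1.17 ± 0.22, with committed arrays between -3.73 and -3.01, and its call ended under 6 of 26 other settings, in which the change was as small as -0.59. Tmem176b and Tmem176a, paired membrane proteins of myeloid cells, fell by 1.69 ± 0.20 and 1.52 ± 0.21. Tmem176b stood between 2.98 and 3.91 in Kit+Gr1- cells, at 1.86, 2.31 and 2.84 in Kit-Gr1- cells and at 1.09, 0.67 and 1.39 in Gr1+ cells. The Kit-Gr1- arrays thus lay between the other groups for this gene.

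Regulators of transcription, RNA and growth made up a further set of lower genes. Sox4, a transcription factor of progenitors, measured 1.27, 1.80 and 1.1 in Sca1hi cells and 0.98, 1.29 and 1.11 in Sca1lo cells, against -0.34, 0.49 and 0.58 in Kit-Gr1- cells and 0.03, -0.48 and 0.15 in Gr1+ cells. It fell by 1.19 ± 0.19 (2.28-fold, adjusted p = 0.00473 by limma). Mdfi, which inhibits myogenic factors of the basic helix-loop-helix family, fell by 1.58 ± 0.28, and its highest committed array, Gr1+ replicate 3 at -0.08, lay near the lowest Kit+Gr1- array at 0.10. Tut4, which adds uridine to the ends of RNAs, fell by 1.51 ± 0.23, and 3 other probes of Tut4 gave -1.06, -1.23 and -1.80 without being called. Khdc1a, a protein with an RNA-binding KH domain, showed the largest fall at 2.63 ± 0.36 (6.2-fold, adjusted p = 0.00158 by limma). It measured -1.85, -0.93 and -0.98 in Kit-Gr1- cells and -3.47, -5.25 and -2.66 in Gr1+ cells, where Kit+Gr1- arrays lay between -0.38 and 0.31.

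Cdkn1c, a cyclin kinase inhibitor known for keeping stem cells out of division, fell by 1.23 ± 0.26 (2.35-fold, adjusted p = 0.0233 by limma). Its Kit+Gr1- arrays lay between -2.13 and -1.22 and its committed arrays between -3.70 and -2.29, and its call ended under 13 of 26 other settings. Deptor, an inhibitor of mTOR kinase, fell by 1.09 ± 0.16 and was lower in Kit-Gr1- cells (-0.31, -0.33 and -0.16) than in Gr1+ cells (0.55, 0.42 and 0.45). Lck, a tyrosine kinase of T cells, fell by 1.16 ± 0.17, and no other of 26 lymphoid genes was called. Rcbtb1, a BTB domain protein, fell by 1.38 ± 0.27, although a further probe of it measured -0.33 and was not called, and its call ended under 6 of 26 other settings. Klk8, a secreted serine protease, fell by 1.60 ± 0.25.

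**Figure D2:**
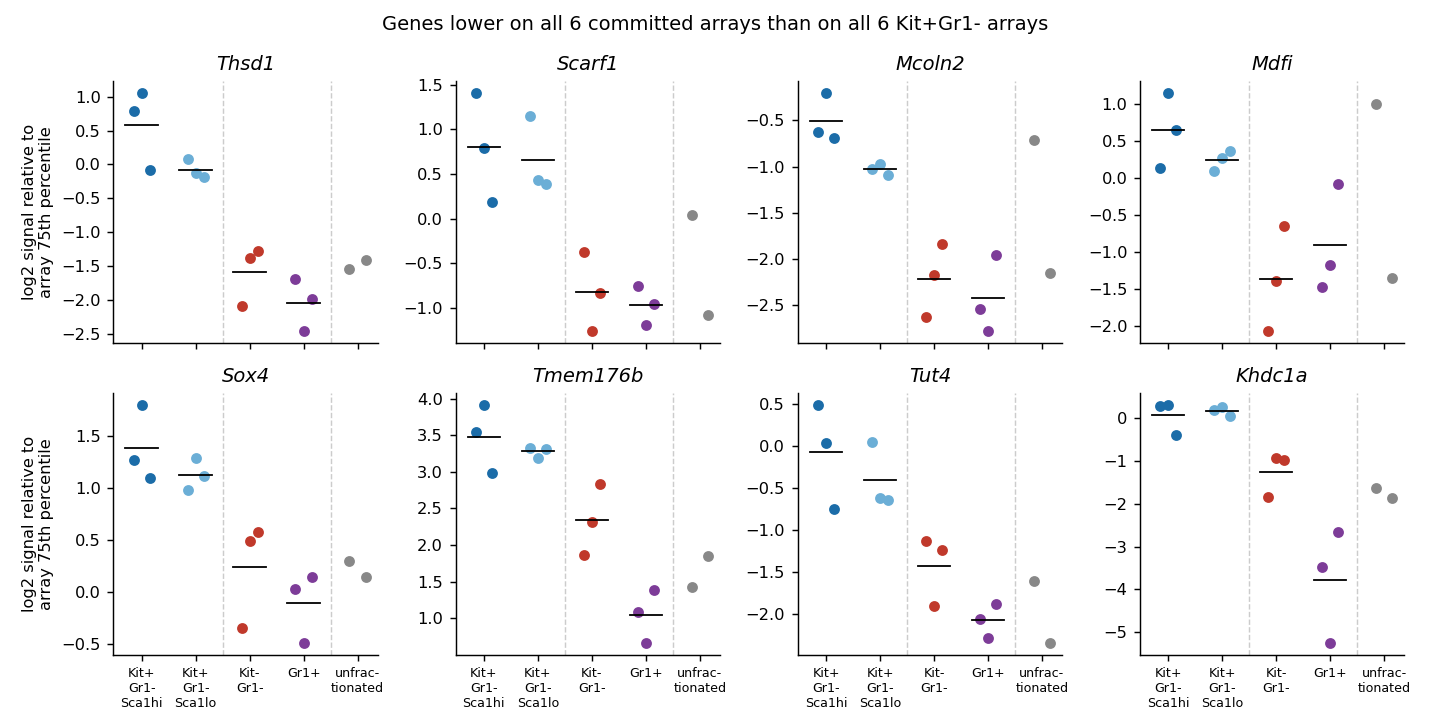
Log2 signal relative to the array's 75th percentile for 8 of the lower genes, 1 point per array in each of the 5 sample groups, with short lines at the group means of the sorted fractions; vertical scales differ between panels. All 6 Kit+Gr1- points lie above all 6 committed points in each panel, and the Gr1+ points of Khdc1a and Tmem176b lie below the Kit-Gr1- points.

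Several of the named higher genes encode receptors. Sucnr1, the receptor for succinate, measured -4.44, -4.67 and -3.90 in Sca1hi cells and -5.03, -3.64 and -3.31 in Sca1lo cells, against -2.14, 0.40 and -0.53 in Kit-Gr1- cells and -0.92, -0.50 and -1.40 in Gr1+ cells. It rose by 3.32 ± 0.42 (9.97-fold, adjusted p = 0.00096 by limma), by 3.41 ± 0.51 in the Kit-Gr1- and 3.22 ± 0.51 in the Gr1+ fraction, and the difference between the fractions (-0.19 ± 0.59) was not called. Gpr34, a receptor for lysophosphatidylserine, rose by 3.12 ± 0.54 (8.72-fold), and its Kit+Gr1- arrays ranged widely, from -6.73 to -3.23, with 5 of 6 well above background. Adora2b, an adenosine receptor, lay between -2.26 and -1.56 on the Kit+Gr1- arrays and rose by 2.89 ± 0.25 (7.43-fold, adjusted p = 0.000129 by limma). It measured -0.44, 1.00 and 0.28 in Kit-Gr1- cells and 2.30, 1.79 and 1.20 in Gr1+ cells, so that all Gr1+ arrays exceeded all Kit-Gr1- arrays. Lilrb4a, an inhibitory receptor of myeloid cells, rose by 2.65 ± 0.29.

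Enzymes and secreted proteins formed the next set. Akr1c18, an aldo-keto reductase that inactivates progesterone, showed the largest rise at 4.04 ± 0.33 (16.4-fold, adjusted p = 0.000129 by limma). It measured between -3.60 and -2.09 on the Kit+Gr1- arrays, -0.44, 0.38 and -0.13 in Kit-Gr1- cells and 3.49, 2.25 and 1.82 in Gr1+ cells, 3 levels that did not overlap. Ccl3, a chemokine of macrophages and mast cells, rose by 3.49 ± 0.41, Spp1, which encodes osteopontin, by 3.42 ± 0.30, and F10, clotting factor X, by 3.34 ± 0.41. F10 was also lower in Sca1hi (-1.01, 1.35 and -0.06) than in Sca1lo cells (1.02, 1.95 and 1.45), a difference of -1.38 ± 0.58 that was not called. Adam8, a membrane metalloprotease of leukocytes, rose by 3.06 ± 0.31, and Furin, which cleaves proprotein precursors, by 2.15 ± 0.27. Vwf, the von Willebrand factor of platelets and endothelium, rose by 2.30 ± 0.33, from a range of -0.23 to 0.74 on the Kit+Gr1- arrays to 2.94, 1.11 and 2.03 in Kit-Gr1- and 4.03, 2.92 and 2.23 in Gr1+ cells. Thsd1 and Vwf are both known from endothelium and moved in opposite directions.

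**Figure D3:**
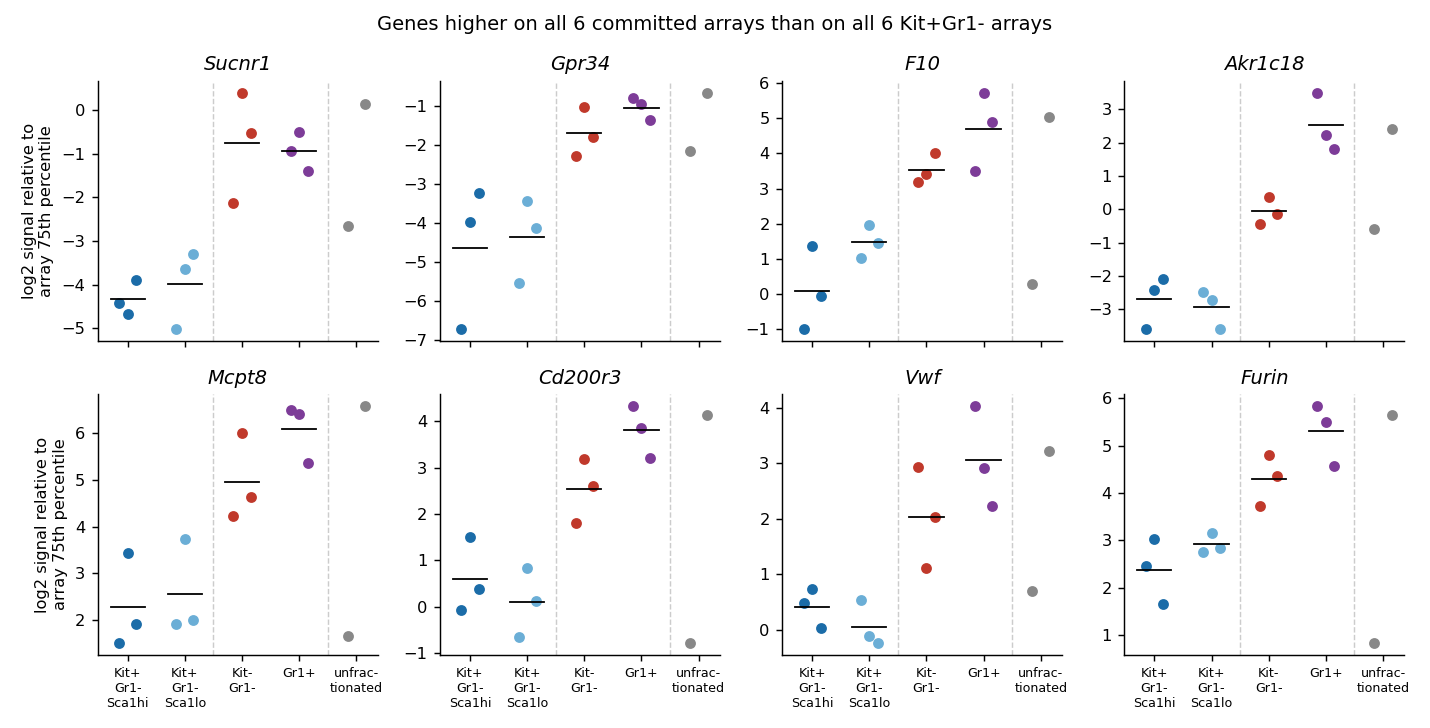
Log2 signal relative to the array's 75th percentile for 8 of the higher genes, 1 point per array in each of the 5 sample groups, with short lines at the group means of the sorted fractions; vertical scales differ between panels. All 6 committed points lie above all 6 Kit+Gr1- points in each panel.

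Of the marker lists, that of mast cells and basophils held the most shared genes, 4 of 27, where 138 of all 31248 genes were shared. Cd200r3 was called in each committed fraction alone and the other 3 in the Gr1+ fraction alone. Mcpt8, a serine protease of basophils, measured 1.52, 3.43 and 1.91 in Sca1hi cells and 1.92, 3.74 and 2.01 in Sca1lo cells, against 4.22, 6.0 and 4.62 in Kit-Gr1- cells and 6.49, 6.41 and 5.35 in Gr1+ cells. It rose by 3.09 ± 0.43 (8.54-fold, adjusted p = 0.00182 by limma). Replicate 2 was the highest array of Mcpt8 in Sca1hi, Sca1lo and Kit-Gr1- cells. Cd200r3, an activating receptor of basophils and mast cells, rose by 2.81 ± 0.33 (7.02-fold), Il4, the cytokine interleukin-4, by 2.35 ± 0.28 (5.10-fold), and Ms4a2, a chain of the high-affinity IgE receptor, by 1.22 ± 0.22. Ms4a2 measured between -1.08 and -0.27 on the Kit+Gr1- arrays, 0.46, 1.36 and 0.70 in Kit-Gr1- cells and 1.12, 0.31 and -0.04 in Gr1+ cells. Of the 27 genes tested 8 were called higher and none lower in the joint comparison (1.12% and 0.307% of all genes), with a median of 0.40. In the Kit-Gr1- fraction 1 was called higher and 1, Kit, lower (0.282% and 0.064% of all genes). In the Gr1+ fraction 10 were called higher and 1 lower (3.04% and 1.29% of all genes). The summed level of all 27, in multiples of the array's 75th percentile, was 116 to 283 in Sca1hi, 138 to 222 in Sca1lo, 213 to 450 in Kit-Gr1- and 326 to 638 in Gr1+ cells. At least 25 of the 27 were well above background on every array. The genes were filtered by the same flag, which most spots of every array carried, so this does not show such cells in a fraction. The part of basophil-like or mast-like cells in these results was not tested.

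In the other lineage lists the counts of calls are given by fraction, to be read beside the shares of all genes above. Genes outside the naming rule that appear among short counts were named after their values were seen. Of 23 later neutrophil granule genes 8 were called higher in the joint comparison and 21 in the Gr1+ fraction, and none was separated (medians -0.28 in Kit-Gr1- and 4.85 in Gr1+ cells), the stefin gene Stfa2l1 measuring 0.78 and 8.01. Of 16 primary granule genes 8 were called higher, and Serpinb1a, an inhibitor of neutrophil proteases, was the shared one at 1.71 ± 0.21. It measured between 4.19 and 5.44 on the Kit+Gr1- arrays and between 5.79 and 6.96 on the committed arrays. The related genes Serpinb1b and Serpinb1c, named after their values were seen, were shared as well at 1.79 and 1.64, while a further probe of each (0.13 and 1.55) was not called, and close sequence relatives such as these may share probe signal. Of 10 eosinophil genes 5 (Prg2, Prg3, Epx, Ear6 and Siglecf) and of 22 monocyte and macrophage genes 6 were called higher, and none of either was separated. Their examples Prg2 (0.13 and 7.71) and Sirpa (-0.17 and 6.88) moved in the Gr1+ fraction. Of 33 red cell genes 4 (Hba-a1, Aqp1, Epor and Gata1) were called higher in the joint comparison and 8 in the Kit-Gr1- fraction, with none separated, and Hba-a1 measured 3.90 there and 0.18 in the Gr1+ fraction. In Gr1+ cells 5 red cell genes were called lower.

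The summed levels of these marker lists moved with the fractions. Later granule genes summed to 29.1 to 58.9 in Sca1lo and 36.3 to 78.7 in Sca1hi cells, 18.9 to 77.9 in Kit-Gr1- cells and 781 to 1633 in Gr1+ cells. Primary granule genes summed to 303 to 718 in Kit+Gr1- cells, 361 to 743 in Kit-Gr1- and 1853 to 2367 in Gr1+ cells. Eosinophil genes summed to 1.42 to 5.37 outside the Gr1+ fraction and 111 to 289 in it, and monocyte genes to 9.96 to 20.4 outside and 76.6 to 120 in it. Red cell genes summed to 142 to 332 in Kit+Gr1-, 394 to 501 in Kit-Gr1- and 91.0 to 152 in Gr1+ cells. The filter required every tested member to be well above background on 3 or more arrays, and how far these cells account for a shared gene was not tested. Of 18 platelet genes 2 were called higher, both shared: Vwf and Ppbp, a platelet chemokine that rose by 1.74 ± 0.22. In the Kit-Gr1- fraction 6 platelet genes were called higher, and in the Gr1+ fraction 2 were called higher and 4 lower, with medians of 0.86 and -0.29. Their summed level was 28.6 to 60.7 in Kit+Gr1-, 86.1 to 146 in Kit-Gr1- and 32.9 to 54.1 in Gr1+ cells. Lymphoid genes (summed level 13.9 to 25.5 in Kit+Gr1-, 9.65 to 14 in Kit-Gr1- and 25.2 to 39.1 in Gr1+ cells) had Lck as their only call, and the 18 stromal genes (45.0 to 68.0, 43.4 to 69.7 and 75 to 110.1) had Pdgfrb.

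Lists of progenitor genes held calls in both directions. Of 34 transcription factors of stem and progenitor cells, Sox4 fell and Id2, an inhibitor of basic helix-loop-helix factors, rose by 1.82 ± 0.26, and 32 were not called. Id2 measured between -0.23 and 1.23 on the Kit+Gr1- arrays, 1.26, 2.27 and 1.77 in Kit-Gr1- cells and 2.97, 3.29 and 2.55 in Gr1+ cells, and a further probe rose by 1.61 with overlapping arrays. Of 24 progenitor surface genes 4 were called higher, Ly6a, Cd33 (1.32) and the tetraspanins Cd9 (1.28 ± 0.21) and Cd53 (1.25 ± 0.20), and the tetraspanins were shared. Cd9 lay between 2.65 and 3.96 in Kit+Gr1- cells and between 4.19 and 5.11 in committed cells. Of 28 genes that blood progenitors share with endothelium 4 fell and Vwf rose, and besides Thsd1 the lower ones were Gimap5 (-1.49), Gimap1 (-1.20) and Eng (-1.07), whose arrays overlapped. Of 35 genes of Kit and interleukin-3 receptor signalling 2 rose. Csf2ra, the other receptor chain called, measured 0.18 in Kit-Gr1- and 3.91 in Gr1+ cells, and Csf2rb2, a receptor chain for interleukin-3 with a near-identical relative, was shared at 1.47 ± 0.31. Its lowest committed array lay 0.0008 above its highest Kit+Gr1- array, and its call ended under 11 of 26 other settings. Of 28 integrin and adhesion genes Itgam (1.17), Cd44 (1.07) and Itgb2 were called, and Itgb2, an integrin chain of leukocytes, was shared at 1.98 ± 0.19.

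The lists of growth and division genes differed in their calls. Of 27 inhibitors of the cell cycle 3 rose (Cdkn2b 1.94, Cdkn2a 1.65 and Gadd45a) and Cdkn1c fell, with a median of 0.45, and Gadd45a, a stress-induced inhibitor, was shared at 1.23 ± 0.19 with Kit+Gr1- arrays between 0.06 and 0.90 and committed arrays between 1.20 and 2.44. None of 32 DNA replication genes, 27 mitosis genes or 31 ribosome assembly genes was called in the joint comparison, and at medians of -0.29, -0.18 and -0.27 they lay near the -0.17 of all genes. Values were -0.58 for Ung of replication, -0.79 for Ttk and -0.47 for Top2a of mitosis, and -0.59 for Ddx21 and -0.54 for Nolc1 of ribosome assembly. In the Gr1+ fraction the medians of the replication and ribosome assembly lists were -0.58 and -0.63, and Ung (-1.07), Ddx21 (-1.17) and Nolc1 (-1.13) fell there. Of the 32 replication genes 1 and of the 31 ribosome assembly genes 3 were called lower in that fraction, against 1.29% of all genes. No median of all genes is given for that fraction alone, so these list medians lack a reference. Of 35 mTOR pathway genes Deptor alone was called. Of 15 Myc and Mxd network genes Mycn was called lower, at 0.04 in the Kit-Gr1- and -2.50 in the Gr1+ fraction, and Mlx measured 0.72 ± 0.14. Of 39 lysosome and autophagy genes 3 rose (Ctsh, Ctsd and Ctsb), 17 rose in the Gr1+ fraction, the median was 0.57, and none was shared, as Ctsh (-0.12 and 3.89 in the Kit-Gr1- and Gr1+ fractions) and Ctss (-0.23 and 2.75) illustrate.

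The remaining lists held no shared gene beyond those already named. Of 43 genes of the Wnt, Notch and TGF-beta pathways none was called, with Smad7 at 1.04 ± 0.30 over 11 arrays and Jag2 at -1.02 ± 0.49. Of 30 genes with thrombospondin repeats Thsd1 fell and Thbs1, a secreted thrombospondin, rose by 1.85 with overlapping arrays. Among 34 chromatin genes Dnmt3l rose (0.18 in Kit-Gr1- and 3.09 in Gr1+ cells) and Dnmt3b fell (-0.50 and -1.67). None of 22 cholesterol synthesis genes was called (Mvd 0.67, Fdps 0.62). Of 31 interferon and antigen presentation genes Ifitm6 was called (-0.18 and 4.73). Of 25 immediate early genes Dusp6 was called (0.72 and 1.97), while Nfkbia measured -0.08 and 2.08 and was not. Of 26 p53 targets and of 19 Bcl2 family genes Pmaip1 was the single call (0.20 and 2.10), and Btg2 measured 1.48 and 0.92 and Bcl2a1b -1.0 and 5.06. Beside these counts, 1.12% and 0.307% of all genes were called higher and lower.

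The shared genes moved further in the Gr1+ fraction in most cases. Of the 96 higher genes 83 moved further in Gr1+ cells and 13 in Kit-Gr1- cells, with medians of 1.73 and 1.20, and of the 42 lower genes 35 and 7, with medians of -1.63 and -1.03. The difference between the committed fractions was called for 27 higher and 8 lower genes, each time with the larger change in Gr1+ cells, where 2.44% of all genes were higher and 1.65% lower in Gr1+ than in Kit-Gr1- cells. Against Kit+Gr1- cells each fraction alone gave unequal numbers of calls. Limma called 25 of the higher and 8 of the lower shared genes in the Kit-Gr1- fraction (0.282% and 0.064% of all genes), 93 and 38 in the Gr1+ fraction (3.04% and 1.29%), and 23 and 6 in both. The comparisons share the Kit+Gr1- arrays. For the named genes the smaller change was often the one of Kit-Gr1- cells, as for Spp1 (2.15 against 4.69), Akr1c18 (2.75 against 5.33) and Khdc1a (-1.36 against -3.90). Without Kit-Gr1- replicate 1, 2 or 3 the calls of all genes in that fraction fell from 108 to 33, 53 and 26, without Sca1lo replicate 1 or 3 they were 58 and 59, and without Gr1+ replicate 2 those in Gr1+ cells were 863 against 1354.

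**Figure D4:**
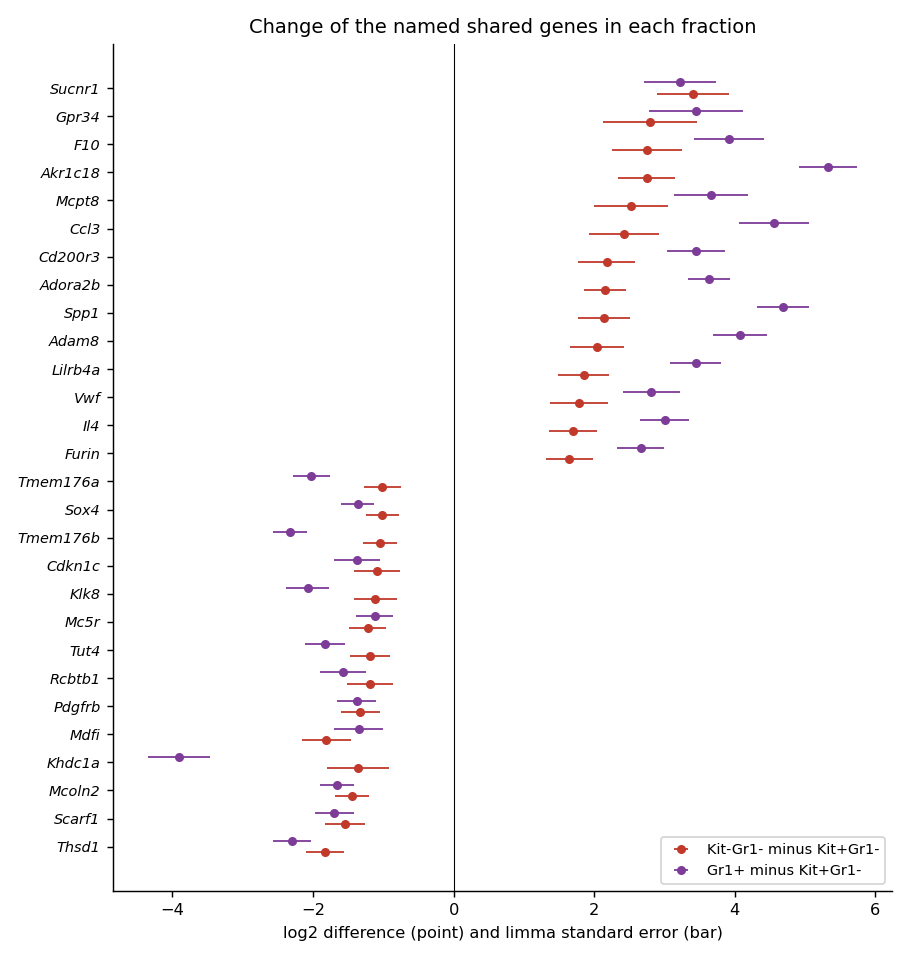
Log2 difference from the mean of both Kit+Gr1- fractions for the 14 higher and 14 lower named genes, red for the Kit-Gr1- and purple for the Gr1+ fraction (3 arrays each against 6), with bars of 1 limma standard error on each side. Sucnr1, Mc5r and Mdfi have larger Kit-Gr1- than Gr1+ changes in size, and Khdc1a, Akr1c18 and Spp1 have the widest gaps between the fractions.

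Between the 2 Kit+Gr1- fractions no gene was called by limma (264 of 31248 genes had an unadjusted p under 0.05, 5 of the 96 shared higher genes and 0 of the 42 lower ones among them). The Sca1lo mean lay nearer to the committed mean for 70 of the 96 higher genes and 37 of the 42 lower genes. Over all genes the Sca1lo mean lay above the Sca1hi mean for 52.7%. The higher genes had a median Sca1hi minus Sca1lo difference of -0.21 and the lower genes one of 0.28. These sizes are small beside the changes from Kit+Gr1- to committed cells and rest on 3 arrays a side. Replicate 3 was compressed in both fractions (interquartile range 2.37 for Sca1hi and 3.42 for Sca1lo). The counts of nearer means were not repeated without it.

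Unfractionated cells gave a view of the shared genes in samples that had no part in choosing them. Over all genes replicate 2 correlated at 0.983 with the Gr1+ mean, 0.977 with the Kit-Gr1- mean and 0.971 with the Kit+Gr1- mean. Most shared genes moved further in Gr1+ cells, and the part of such cells in the counts below was not tested. On unfractionated replicate 2, 92 of the 96 higher genes were at or beyond the committed mean and the other 4 lay between the committed and the Kit+Gr1- means, while 31.2% of all genes exceeded the committed mean. Of the 42 lower genes 20 were at or beyond the committed mean and 22 between, where 68.8% of all genes lay below it. Akr1c18 stood at 2.42, Mcpt8 at 6.57, Sucnr1 at 0.14 and Thsd1 at -1.42 on this array. Ly6c1 was at 5.18 and Ly6a at 1.94, levels between those of Gr1+ cells and of the other fractions. The count of higher genes was 94 with array medians, 92 with quantile normalization and 57 in the deposited log2 values, and that of lower genes 5, 11 and 38. Unfractionated replicate 1 had the most compressed signals of all arrays (interquartile range 1.78). It correlated at 0.56 with the Gr1+ mean, 0.49 with the Kit-Gr1- mean and 0.56 with the Kit+Gr1- mean. It thus resembled no fraction closely, and its counts say little about the shared genes. On it 62 higher genes lay beyond the Kit+Gr1- mean, 33 between the means and 1 beyond the committed mean. There 60.4% of all genes exceeded the committed mean. Of the 42 lower genes on that array 17 lay beyond the Kit+Gr1- mean, 19 between and 6 beyond the committed mean.

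**Figure D5:**
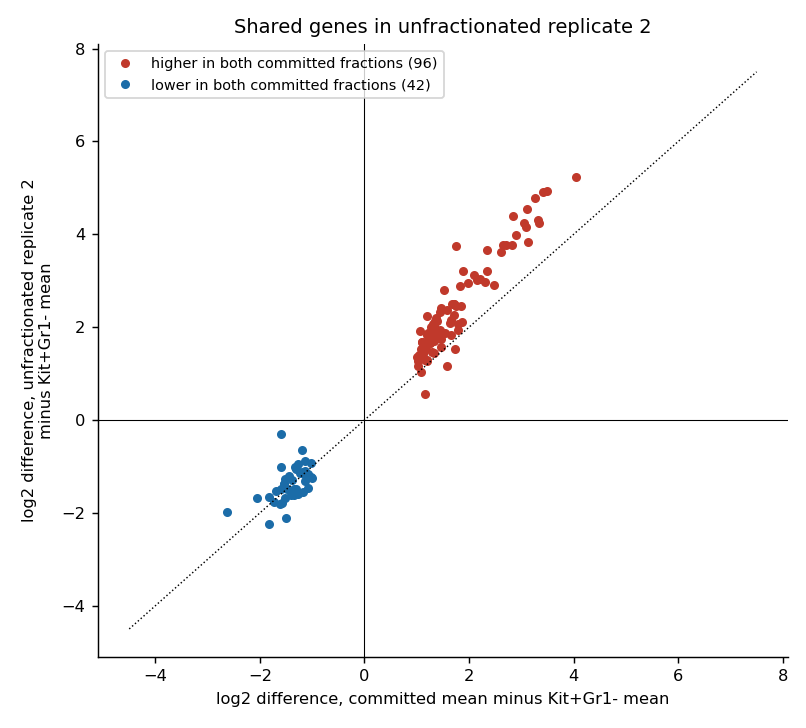
Log2 difference from the Kit+Gr1- mean for the committed mean (horizontal axis) and for unfractionated replicate 2 (vertical axis), 1 point per shared gene (96 higher in red, 42 lower in blue); the dotted line marks equal values, and both axes subtract the same Kit+Gr1- mean. Most red points lie above the line and the blue points lie around it.

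Values within slides differed in size for some of the higher genes. Mcpt8 measured 3.64, 2.47 and 1.55 within slides 1, 2 and 3, Cd200r3 3.43, 2.69 and 1.42, Il4 2.70, 2.57 and 1.53, Ccl3 3.88, 3.38 and 1.72, and Akr1c18 4.56, 4.04 and 3.25, each smallest on slide 3. Sucnr1 (3.21, 3.59 and 3.70), Adora2b (3.02, 3.08 and 2.68) and Ms4a2 (1.48, 1.24 and 1.40) varied by less than these. Slide 2 compares with Sca1lo alone and slide 3 with Sca1hi alone, so these values do not repeat 1 contrast, and their common direction follows from separation. With slide as a block, all 39 named shared genes kept their call. Among all shared genes fewer did, 76 of the 96 higher and 41 of the 42 lower ones. Fitting all 14 arrays, which lets the unlike unfractionated pair into the estimate of spread, ended 25 of the 39 calls. Array median scaling ended 16, among them Scarf1, Mdfi, Tut4, Mc5r, Klk8, Tmem176b, Tmem176a, Sox4, Lck and Deptor of the lower genes. Sucnr1, Akr1c18, Adora2b, Il4, Thsd1, Mcoln2 and Khdc1a kept their calls under all 26 refits tried.

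Other probes gave a check on the array's own measurements. Of the shared genes 26 had 31 further probes, of which 29 pointed the same way, 9 were called in the same direction and 7 were separated, and 0 were called in the opposite direction. Mdfi (-1.57), Tmem176a (-1.45), Vwf (2.15) and Id2 (1.61) were called by a further probe too. The following genes were named after their values were seen, and their further probes were not called. Those of Ceacam1 (0.09 and 0.34 against 3.11) and Calca (0.48 against 2.34) moved far less. Those of Hpn (-0.12 against 1.40) and Cyp2b9 (-0.14 against 1.19) pointed the other way. At the edge of the rule, Csf2rb2 and Nt5dc2 were separated upward by gaps of 0.0008 and 0.0016, while the called genes Ifngr1 and Pirb overlapped at gaps of -0.0067 and -0.0124. On the lower side Zfp521 and Cpne7 were inside at gaps of 0.0252 and 0.0564, and Mboat2 and Pfn2 outside at -0.0244 and -0.0299.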

How the data were processed

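RNA of 14 FDCPmix samples was hybridised with 1 dye, Cy3, to Agilent mouse arrays read with Feature Extraction 10.1.1.1, per the file headers, which name build mm8 for the array design. In the deposited scanner files the intensity of a spot is its processed signal, per the file headers. The deposited series matrix holds its log2, with a largest difference of 5e-09 from the scanner values, and is not scaled between arrays. Of 41174 probes on 43379 spots, 23366 took 1 of 16531 symbols from a RefSeq gene table by accession, and 17808 kept the array's name.

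The log2 processed signal was computed, outlier spots were left out, and each array's 75th percentile was subtracted. Probes had to exceed background clearly (the scanner's flag) on 3 or more sorted arrays (38882 probes), and the one of highest mean stood for its gene (31248 genes, 16259 with a symbol, 629 lacking a value on at least 1 array). The 12 arrays entered 1 limma 3.58.1 fit in R 4.3.3 with 4 group means and no covariates (lmFit, eBayes with trend, residual degrees of freedom 8, prior 4.89). Kit+Gr1- is the mean of both Sca1 groups and the committed level the mean of both committed groups. Tests were two-sided. The unfractionated pair stayed out of the fit. Figures were drawn with matplotlib 3.10.9 and tables made with pandas 2.3.3 and numpy 2.4.6 under Python 3.11.15.

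Named genes are the 14 higher and 14 lower shared genes with a symbol whose smaller change of the 2 fractions was largest and whose higher side cleared background on all its arrays, besides Thsd1, Kit, Ly6a and Ly6c1, the shared members of 29 gene lists (otherwise up to 2 members of largest change, as values), and the 5 genes most correlated with Thsd1. The members and lists were chosen with earlier results of these data known. The fit was tested on simulated data with 200 changed genes among 31248: for committed minus Kit+Gr1- it recovered 34% of 50 genes changed by 1 on the log2 scale, 68% at 2, 80% at 3 and 82% at 4, with 7 false calls. The simulated noise was independent between arrays, unlike that of the real ones, so these are not error rates for these data. Separation was not part of this test. Alternatives covered scaling, background, the filter, slide and replicate blocks, array weights, left-out arrays, other probes and comparators. No saturated spot occurred on the 12 arrays, and the number of arrays limits the precision.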

Additional observations from a re-analysis of the deposited data

Results flagged for a closer look

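For the following genes the change from Kit+Gr1- cells differed between the committed fractions, by limma's test of Gr1+ minus Kit-Gr1- cells (adjusted p from 1.86e-06 to 0.0478). All are named genes except Zfp521, Ifngr1 and Pirb, which come from the edge of the separation rule. Among shared higher genes the difference was 2.58 for Akr1c18, 2.54 for Spp1, 2.14 for Ccl3, 2.03 for Adam8, 1.63 for Itgb2, 1.59 for Lilrb4a, 1.49 for Ppbp and 1.48 for Adora2b. Among shared lower genes it was -2.54 for Khdc1a, -1.44 for Zfp521 and -1.29 for Tmem176b, so the fall was larger in Gr1+ cells. Just outside the shared genes it was 1.80 for Ifngr1 and 1.57 for Pirb.

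Genes of the gate antigens differed by 7.38 (Ly6c1), 5.26 (Ly6a) and 2.50 (Kit). Lineage markers differed by 7.71 for Epx, 7.59 for Prg2, 7.23 for Stfa2l1 and 7.05 for Sirpa, and by -3.72 for Hba-a1, which was higher in Kit-Gr1- cells. Other members of the lists differed by 6.06 for Bcl2a1b, 4.91 for Ifitm6, 4.01 for Ctsh, 2.98 for Ctss, 2.91 for Dnmt3l, 2.16 for Nfkbia and 1.90 for Pmaip1. Differences below 0 were -2.54 for Mycn, -1.18 for Nolc1, -1.16 for Ddx21 and -1.16 for Dnmt3b. Groups of 3 arrays were not searched for single outlying samples.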

How the results depend on the processing

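No named gene's call reversed under any alternative run. Genes called higher and lower in committed cells numbered 349 and 96, against 225 and 13 with array medians, 215 and 138 in the deposited log2 values, 683 and 377 with array weights, 27 and 21 with all 14 arrays, and 191 and 39 against Sca1lo alone. Lower calls were 58 with normexp on the median signal, 147 with the slide block and 173 without the 3 compressed arrays. Separated genes (350 and 155) numbered 109 and 28 with array medians, 119 and 242 in the deposited values, 532 and 328 against Sca1hi alone, 733 and 634 against Sca1lo alone and 581 and 852 without the compressed arrays. Lower separated genes were 395 with quantile normalization and 398 with normexp. Shared genes (96 and 42) were 58 and 6 with array medians, 54 and 65 in the deposited values, 18 and 16 with all 14 arrays, and 137 and 105 without the compressed arrays. Calls in Kit-Gr1- cells (108) were 44 with array medians, 853 with array weights, 182 with the slide block, 22 with all 14 arrays, 28 without the eBayes trend and 17 against Sca1lo alone. Calls in Gr1+ cells (1354) were 693 with array medians, 663 with all 14 arrays and 2163 with array weights, and those between the committed fractions (1279) were 561 with array medians and 533 with all 14 arrays. Between Sca1hi and Sca1lo cells (0 calls) they were 20 with array weights and 3 with the slide block.

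Leaving out 1 array at a time gave 244 to 433 higher and 57 to 135 lower calls, 358 to 699 and 161 to 361 separated genes, 79 to 188 and 34 to 73 shared genes, 26 to 162 calls in Kit-Gr1- cells, 863 to 1661 in Gr1+ cells, 732 to 1625 between the committed fractions and 0 to 1 between the Kit+Gr1- fractions. With replicate number as a block 247 genes were called in Kit-Gr1- cells and 2 between the Kit+Gr1- fractions, and the shared genes were 96 and 43. With each fraction's mean removed, same-numbered samples of different fractions correlated at -0.30 to 0.86 (13 of 18 pairs over 0.1). Other-numbered ones correlated at -0.84 to 0.62 (11 of 36). Values over 0.1 were thus more frequent among same numbers. They were also more frequent within slides (10 of 13 pairs) than between slides (14 of 41). The highest values (0.86, 0.85 and 0.79) joined the 3 compressed arrays, all of replicate 3. The parts of number, slide and compression were not tested. The main fit takes no pairs and leaves such correlation out.

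List medians that changed sign were those of chromatin (0.08) and progenitor transcription factors (0.04) with array medians, of progenitor surface genes (-0.03) with quantile normalization, and of 6 lists near 0 with the slide block (-0.05 to 0.15), which the all-gene median of 0.07 there accompanies. Array weights by restricted maximum likelihood did not converge and were not run, and gene-by-gene weights, normexp on the median signal and the unfractionated scalings were chosen after seeing the data. Low signals limit Gpr34, with 1 Kit+Gr1- array not well above background, and 2 of the 42 lower genes, which have no symbol, with 4 of 6 committed arrays well above it.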
